A study of Homo sapiens and Mus musculus with 34 samples.

Results

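The 96 genes described here make the H/ACA small nucleolar RNAs and the small Cajal body RNAs, and they are all the symbols of the authors' gene table that begin with SNORA (73 genes) or SCARNA (23 genes), out of 32974 symbols whose values could be found on the human arrays. They were taken by symbol and not by how they changed. The genes were followed on 24 Affymetrix human transcriptome arrays, hybridised with total RNA of 4 neuroblastoma cell lines, in 8 groups of 3 arrays. The treated groups were Kelly, SKNAS, BE2C (also written BE(2)C) and SHSY5Y (SH-SY-5Y) cells exposed for 1 h to CYC065, an inhibitor of cyclin-dependent kinases that the series title places among orally available CDK9 inhibitors. The other groups were untreated cells of the same lines, which the design text describes as given DMSO. The labelled dose was 1 µM in every line, but the treatment protocol gives 5 µM for SKNAS. As background, MYCN is amplified in Kelly and BE2C, and each line stands for 1 tumour. The arrays of a group are biological replicates by the design text, so a p-value within a line rests on the spread between 3 cultures of that line. P-values for the average over the lines, and for differences between lines, rest on the spread within groups, pooled over the lines fitted. None is scaled by the spread between lines. A small p-value for the average therefore does not show that the 4 lines agree. Kelly and SKNAS came in an earlier deposit and BE2C and SHSY5Y in a later one, and levels are compared only within a deposit. The study asks what blocking CDK9 does to transcription in these cells. The mouse tumours of the series were not analysed here.

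H/ACA RNAs are short nuclear RNAs that guide the enzyme dyskerin to single uridines of ribosomal and spliceosomal RNA, where uridine is turned into pseudouridine. They fold into a pair of hairpins with the box H in the hinge between them and the trinucleotide ACA after the last hairpin, close to the 3′ end, and dyskerin, NHP2, NOP10 and GAR1 coat them. Small Cajal body RNAs (scaRNAs) do the same work, or the 2′-O-methylation done elsewhere by box C/D RNAs, on the spliceosomal RNAs, and they collect in Cajal bodies through WRAP53 or related proteins. In human cells nearly all of these RNAs are cut out of introns of other genes after splicing, so transcription of the host gene by RNA polymerase II makes the precursor. Mature snoRNAs are long-lived in the cell. A gene row on this array cannot tell the mature RNA from the intron it is cut from, and the column kit used for the RNA recovers very short RNAs poorly.

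The mature sequences of these RNAs were not among the reference tables, but 4 microRNA hairpins that overlap SNORA or SCARNA genes in RefSeq (GRCh38.p14), and run past one of their ends, give parts of 4 of them. Only the bases inside the RNA gene are printed. They are printed to show the ACA element that defines the class: in the 3 stretches that reach the last base of the RNA, capitals mark ACA, which lies 3 bases before the 3′ end in 3 of 3. Over all 1562 RefSeq hairpins, 1.43% of 3-base positions read ACA. SCARNA3 is shown by its last 83 of 144 bases at chr1:175968397-175968479 (minus strand), SNORA36B by its last 74 of 131 bases at chr1:220200546-220200619 (minus strand), SNORA84 by its last 87 of 133 bases at chr9:92292461-92292547 (minus strand) and SNORA34 by its first 75 of 137 bases at chr12:48654444-48654518 (minus strand).
SCARNA3: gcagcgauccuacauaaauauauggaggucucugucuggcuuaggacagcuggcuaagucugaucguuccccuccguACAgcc
SNORA36B: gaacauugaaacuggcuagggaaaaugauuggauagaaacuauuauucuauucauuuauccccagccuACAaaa
SNORA84: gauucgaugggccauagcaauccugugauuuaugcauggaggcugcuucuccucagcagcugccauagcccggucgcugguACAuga
SNORA34: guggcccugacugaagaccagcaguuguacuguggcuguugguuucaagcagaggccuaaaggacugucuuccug
All 4 had a higher mean level under CYC065 over the 4 lines. The average log2 change, CYC065 minus untreated, was 0.50 for SCARNA3, 0.30 for SNORA34, 0.26 for SNORA84 and 0.15 for SNORA36B.

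The genes measured 122 to 421 bases in RefSeq, with a median of 135, and 14 of them were longer than 200 bases, 10 of these being SCARNA genes. RefSeq placed 94 of the 96 inside another gene, 77 of them inside a protein-coding gene, 15 inside a long non-coding RNA (lncRNA) gene and 2 inside a transcribed pseudogene. The exceptions were SCARNA2, which is made as a gene of its own, and SNORA76C. Strand was not compared, and intron positions were not looked up. Where an RNA is said below to come from a gene or its intron, only its place inside that gene was read. Levels are the authors' log2 values, averaged over 3 arrays. Mean levels ran between 2.43 and 11.74 with a median of 6.79, and 88 genes lay above the median of 23 background rows in all 8 groups, 7 in some groups and 1 (SNORA15) in none. The background rows themselves had mean levels from 2.01 to 12.22. A level above their median, called background in what follows, therefore does not by itself show that a gene was detected. The spread between replicates was wider for these short genes than for the array as a whole: the median SD within a group was 0.096 to 0.163 over the 96 genes and 0.064 to 0.107 over all symbols. Replicate arrays correlated at 0.988 to 0.997 over the 96 genes. The array median of the background rows was 3.38 to 3.49 under CYC065 and 3.29 to 3.31 untreated in Kelly, 3.30 to 3.45 and 3.29 to 3.36 in SKNAS, 3.72 to 3.86 and 3.66 to 3.71 in BE2C, and 3.78 to 4.04 and 3.66 to 3.92 in SHSY5Y. Background was thus higher on every treated array than on every untreated array in Kelly and BE2C, and its part in the changes below was not tested. The sympathetic neuroblastoma markers HAND2 and GATA3 lay above background in all 4 lines. Within the earlier deposit the DBH level was 11.93 in Kelly, against 5.98 in SKNAS, and that of the leukocyte gene PTPRC was 2.96 in Kelly, against 8.70 in SKNAS. The leukocyte genes CD3E and CD14 were at 4.84 and 4.65 in Kelly, against 4.91 and 4.66 in SKNAS.

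After 1 h of CYC065 these RNA genes were called in both directions, more often up than down in Kelly, SKNAS, SHSY5Y and the average, and equally in BE2C. The share that rose was above that of all symbols in each line and in the average. The share that fell was close to that of all symbols in Kelly, SHSY5Y and the average. It was above that of all symbols in SKNAS, and by less in BE2C. These shares were not compared by a test. Among called changes of at least 1.5-fold the balance was the other way in SKNAS (3 up, 8 down) and in the average (3 up, 4 down). The shares of all symbols at that fold were not counted. In Kelly cells 36 of the 96 genes rose and 10 fell at a limma adjusted p under 0.05 (called, in what follows), where 8.91% of all 32974 symbols rose and 10.9% fell. In SKNAS 17 rose and 12 fell, against 1.36% and 4.58% of all symbols. In BE2C 5 rose and 5 fell, against 0.691% and 3.05% of all symbols. In SHSY5Y 7 rose and 3 fell, against 0.409% and 3.96% of all symbols. The median log2 change of the 96 genes was 0.22 in Kelly, 0.04 in SKNAS, 0.08 in BE2C and 0.20 in SHSY5Y, beside 0.07, 0.03, 0.01 and 0.02 over all symbols. In SKNAS the median of the RNA genes thus lay close to that of all symbols, and what set them apart there was a wide spread: the 5th and 95th percentiles of the change were -0.75 and 0.45 for the RNA genes and -0.29 and 0.23 for all symbols. In the average over the 4 lines 46 of the 96 genes rose and 14 fell, against 15.6% and 12.9% of all symbols, with a median change of 0.14 beside 0.04.

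**Figure D1:**
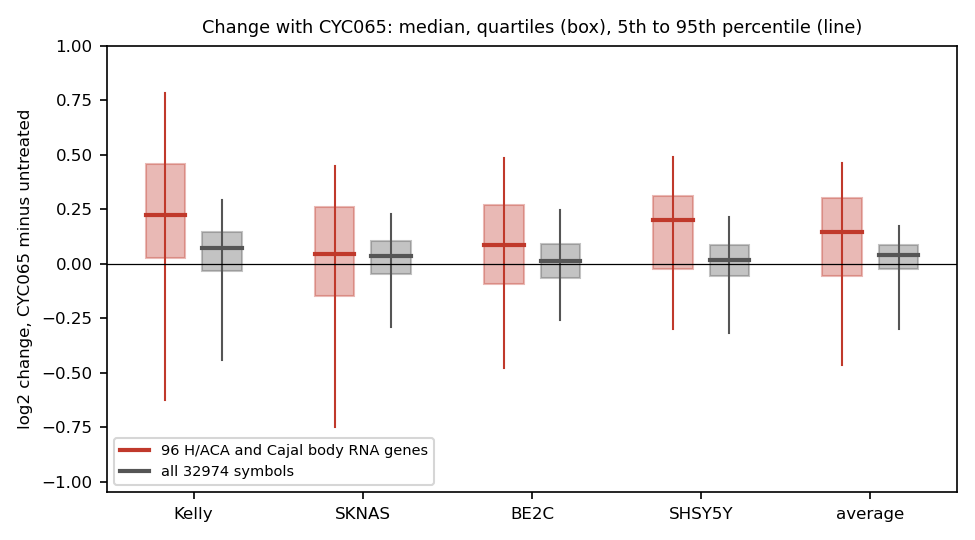
Log2 change with CYC065 (CYC065 minus untreated, vertical axis) in each line and in the average over the 4 lines, for the 96 H/ACA and Cajal body RNA genes (red) and for all 32974 symbols (grey). Thick bars are medians, boxes quartiles and lines the 5th to 95th percentile; the red median lies at 0.22 in Kelly and 0.04 in SKNAS, and the red boxes are wider than the grey ones in every line.

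How many genes were called depended on single arrays, which the labels number 1 to 3 (untreated) and 4 to 6 (CYC065). In SKNAS 8, 10, 9 or 10 genes rose, not 17, once untreated array 1, 2 or 3 or CYC065 array 4 was left out. In SHSY5Y 3 rose without untreated array 1 and 4 without CYC065 array 4 or 5, while 0 fell without CYC065 array 5 (42 of the 96 genes had an unadjusted limma p under 0.05 in that line with all arrays), 1 fell without untreated array 2, and 5 fell without untreated array 3 or CYC065 array 4. In BE2C 3 rose without untreated array 1 or 2 or CYC065 array 4 or 6, and 3 fell without any 1 of the untreated arrays. In the average over the lines 39 to 47 rose and 13 to 15 fell whichever array was left out.

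A few genes were called in the same direction in 3 or 4 lines. SCARNA7 and SCARNA17 rose in all 4 lines, and SCARNA9, SCARNA21, SNORA24, SNORA48 and SNORA49 rose in 3. Over all symbols 0.143% rose in all 4 lines and 0.367% in at least 3. SNORA75 and SNORA9 fell in all 4 lines, and SNORA17, SNORA44 and SNORA55 fell in 3. Of all symbols 1.72% fell in all 4 lines and 3.14% in at least 3. The share of the 96 genes that fell in all 4 lines was thus close to that of all symbols. The share that fell in at least 3 was somewhat higher, and the shares that rose stood further above those of all symbols. None of these shares was compared by a test. No gene rose in 1 line and fell in another, and 44 of the 96 passed the threshold in no single line. Some calls had an adjusted p above 0.05 in the authors' deposited table. In BE2C these were SCARNA17 (0.0617), SNORA45B (0.0599), SNORA55 (0.0720) and SNORA74B (0.190, for the mean of its 2 rows). In SHSY5Y they were SNORA24 (0.0972), SNORA48 (0.0734) and SNORA54 (0.114). The other genes called in BE2C or SHSY5Y were under 0.05 there. The mean change lay above 0 in all 4 lines for 41 genes and below 0 in all 4 for 11, and the same was not counted over all symbols. By the arrays alone, 40 genes in Kelly had all treated arrays above all untreated ones and 12 had them below, against 27.7% and 15.4% of all symbols. In SKNAS these counts were 27 and 21, against 13.7% and 11% of all symbols, and in BE2C 25 and 12, against 10.9% and 12.4%. In SHSY5Y they were 25 and 8, against 7.91% and 10.2%. The groups were apart in this way in all 4 lines for 9 genes that were higher (SCARNA7, SCARNA9, SCARNA17, SNORA24, SNORA47, SNORA48, SNORA49, SNORA71A and SNORA71C) and 4 that were lower (SNORA9, SNORA17, SNORA44 and SNORA75). The share of all symbols apart in all 4 lines was not counted, so how unusual these genes are is not known.

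**Figure D2:**
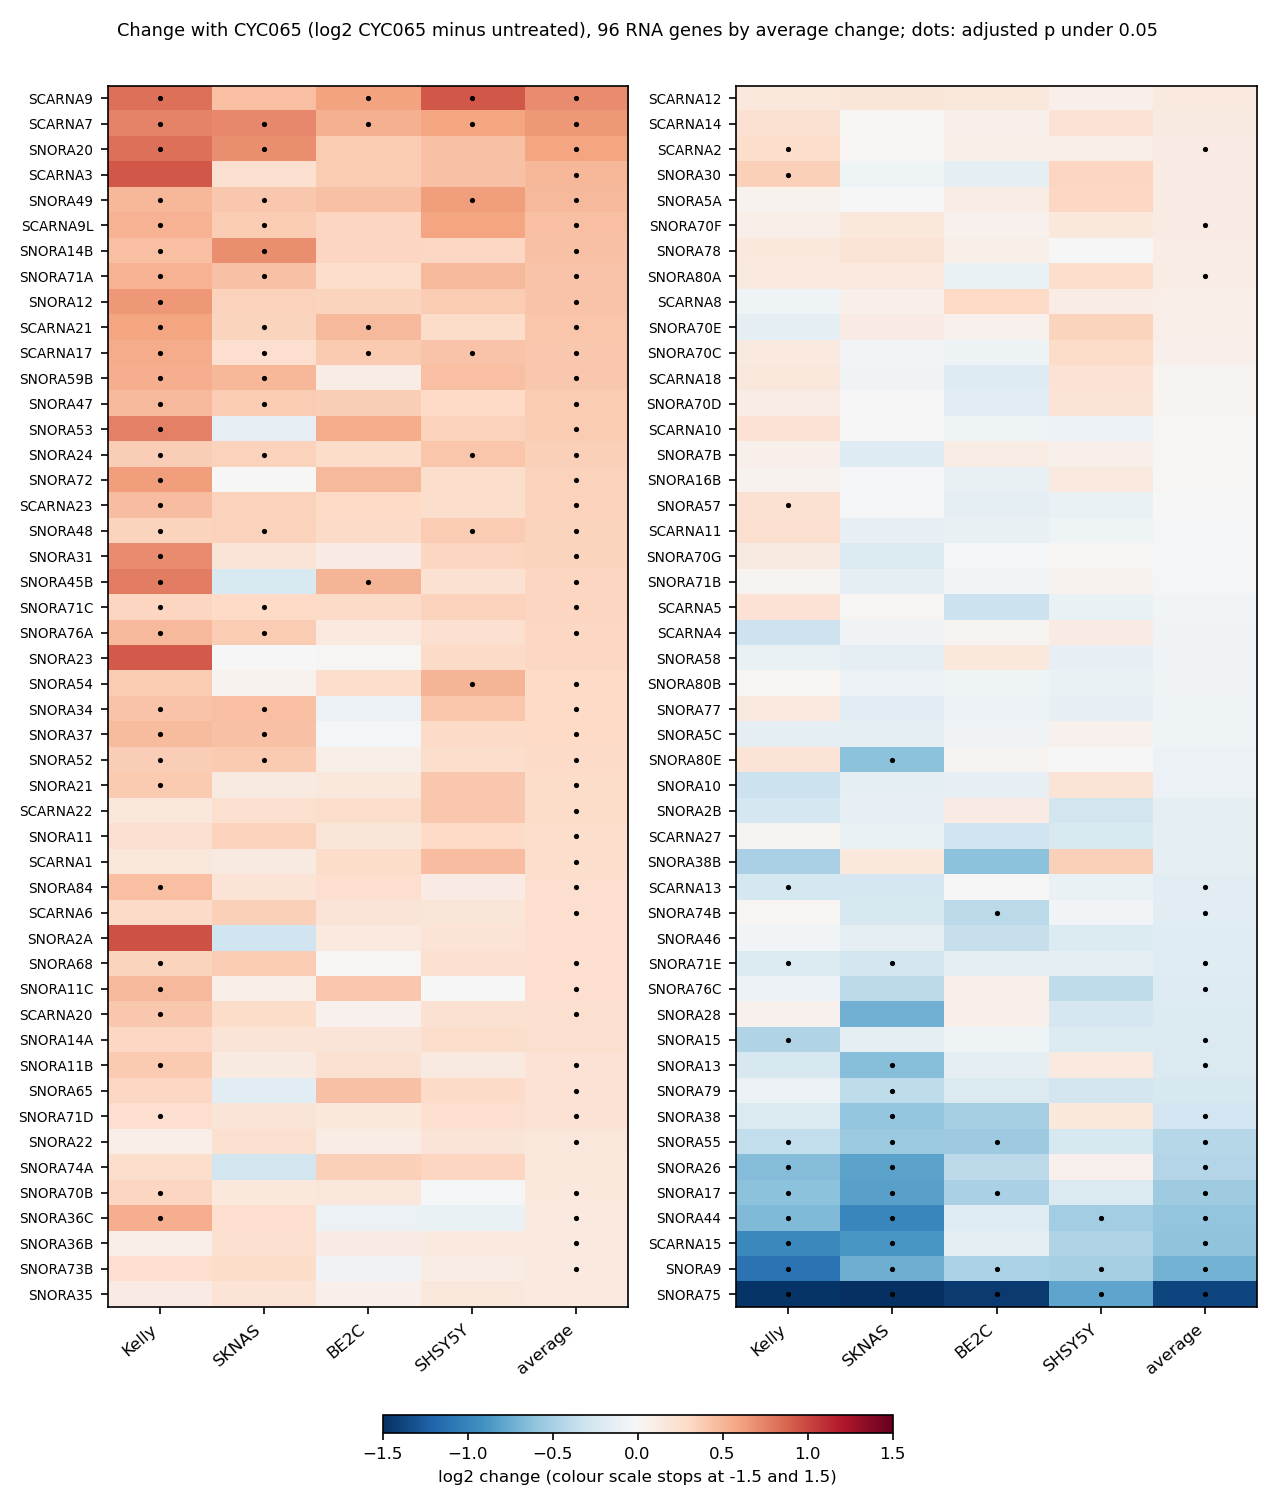
Log2 change (CYC065 minus untreated, colour) of each of the 96 genes (rows, by average change) in Kelly, SKNAS, BE2C, SHSY5Y and the average over the 4 lines (columns); dots mark a limma adjusted p under 0.05. Red rows from SCARNA9 and SCARNA7 down and blue rows up from SNORA75 and SNORA9 hold most of the dots, and Kelly has the most.

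Among the Cajal body RNAs, the 5 that guide 2′-O-methylation (box C/D scaRNAs) all had a higher mean under CYC065 in every line. All 5 rose in Kelly, 3 in each of SKNAS, BE2C and SHSY5Y, and all 5 in the average, with a median average change of 0.45. Of all symbols 8.91% rose in Kelly, 1.36% in SKNAS, 0.691% in BE2C, 0.409% in SHSY5Y and 15.6% in the average. SCARNA9 and SCARNA9L, both among the 5, are near-copies that may share signal, so they may not be separate observations. SCARNA9, which guides methylation of the U2 spliceosomal RNA from an intron of CEP295, had the largest average rise of the 96 genes. In Kelly its log2 levels were 9.38, 9.29 and 9.27 under CYC065, against 8.50, 8.45 and 8.49 untreated. In BE2C they were 9.48, 9.57 and 9.44 under CYC065, against 8.89, 8.93 and 8.86 untreated. In SHSY5Y they were 9.42, 9.38 and 9.15 under CYC065, against 8.49, 8.51 and 8.15 untreated. Every treated array lay above every untreated one of its line, with a wider spread within groups in SHSY5Y than in Kelly or BE2C. The rise was 0.83 ± 0.05 in Kelly (SE; adjusted p 3.43e-05), 0.61 ± 0.06 in BE2C (0.00283) and 0.93 ± 0.12 in SHSY5Y (0.00215), or 1.78-fold, 1.52-fold and 1.91-fold. In SKNAS the levels were 7.43, 7.74 and 7.29 under CYC065, against 7.08, 6.92 and 7.10 untreated. These groups did not overlap either, but the difference of 0.45 ± 0.11 missed the threshold (adjusted p 0.0542).

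SCARNA7, which guides methylation of the U1 spliceosomal RNA from an intron of the importin gene KPNA4, was, with SCARNA17, one of the pair of genes that rose in all 4 lines. In Kelly its levels were 9.77, 9.79 and 9.68 under CYC065, against 9.01, 9.05 and 8.96 untreated, and in SKNAS 9.45, 9.57 and 9.54 under CYC065, against 8.80, 8.67 and 8.94 untreated. In BE2C they were 8.99, 9.00 and 9.03 under CYC065, against 8.43, 8.49 and 8.49 untreated, and in SHSY5Y 9.69, 9.55 and 9.48 under CYC065, against 9.02, 9.08 and 8.85 untreated. No treated array reached down to an untreated one in any line. The changes were 0.74 ± 0.05, 0.72 ± 0.08, 0.53 ± 0.05 and 0.59 ± 0.09 in that order of lines (adjusted p 7.17e-05, 0.000826, 0.00272 and 0.00588), and each call held without any single array. The average change was 0.64 ± 0.03 (adjusted p 3.42e-12).

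SCARNA17, which guides methylation of U12 and U4 RNA, is listed by RefSeq inside the lncRNA gene SNHG22, and its first 50 of 421 bases are also the first 50 bases of that gene. SNHG22 itself rose in SHSY5Y by 0.34 and averaged 0.13. SCARNA17 stood at 9.84, 10.00 and 10.06 under CYC065 in Kelly, against 9.49, 9.23 and 9.51 untreated, and at 9.72, 9.60 and 9.55 under CYC065 in SHSY5Y, against 9.15, 9.17 and 9.25 untreated. In SKNAS it stood at 9.52, 9.50 and 9.48 under CYC065, against 9.26, 9.20 and 9.28 untreated, and in BE2C at 8.97, 8.91 and 8.87 under CYC065, against 8.55, 8.60 and 8.41 untreated. Treated and untreated arrays were apart in all 4 lines, by the least in SKNAS. The rise was 0.56 ± 0.09 in Kelly, 0.25 ± 0.06 in SKNAS, 0.40 ± 0.07 in BE2C and 0.43 ± 0.08 in SHSY5Y (adjusted p 0.00461, 0.037, 0.0233 and 0.0126). The calls in SKNAS and BE2C were lost when any 1 of their 6 arrays was left out, and that in SHSY5Y without untreated array 1 or 2 or CYC065 array 5. In the authors' deposited table its adjusted p was 0.0617 in BE2C and 0.0376 in SHSY5Y.

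SCARNA9L, a second copy of SCARNA9 inside EIF1AX on chromosome X, rose by 0.52 ± 0.05 in Kelly and 0.38 ± 0.09 in SKNAS (adjusted p 0.000481 and 0.0477) and averaged 0.45 ± 0.08. The SKNAS call did not hold without any of its arrays except CYC065 array 6. As near-copies, SCARNA9 and SCARNA9L may share signal on the array. SCARNA2, which guides methylation of U2 and is transcribed from a promoter of its own, had the smallest rise of the 5, at 0.26 ± 0.06 in Kelly (adjusted p 0.0192, lost without untreated array 1 or 2) and 0.12 ± 0.04 on average (adjusted p 0.0394, lost without any 1 of 13 of the 24 arrays). Its mean changes in SKNAS, BE2C and SHSY5Y were 0.03, 0.10 and 0.09, with overlapping arrays.

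**Figure D3:**
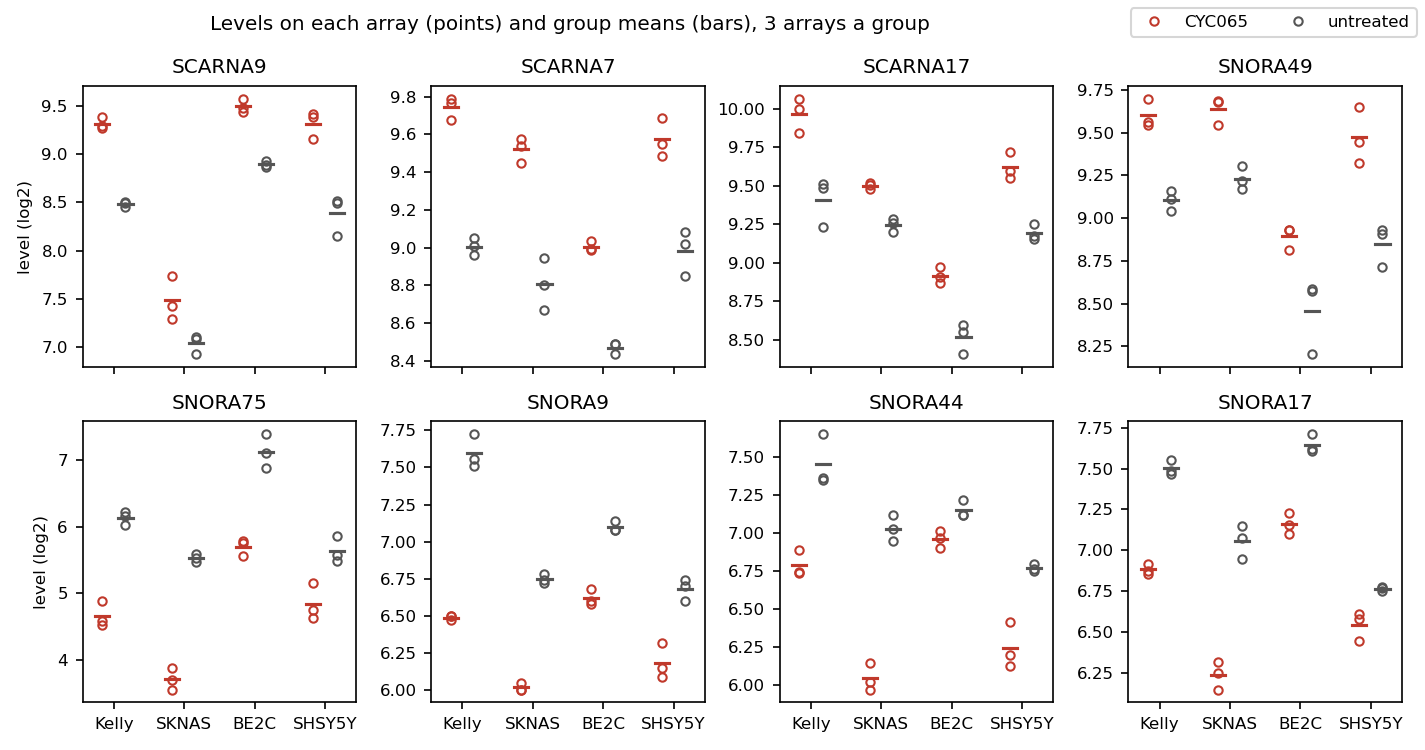
Log2 level on every array (points) and group mean (bars) of 4 genes that rose and 4 that fell, with CYC065 (red) left of untreated (grey) in each line. In SCARNA9, SCARNA7, SCARNA17 and SNORA49 all red points lie above the grey ones of their line, and in SNORA75, SNORA9, SNORA44 and SNORA17 all lie below; the vertical axes differ between panels and do not start at 0.

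The 13 scaRNAs of the H/ACA kind, which guide pseudouridylation of spliceosomal RNAs, split more evenly. In Kelly 3 rose and 2 fell, in SKNAS 1 rose and 1 fell, in BE2C 1 rose, and in the average 6 rose and 2 fell. In SHSY5Y limma called none of the 13, and 5 had an unadjusted p under 0.05. Of all symbols 8.91% rose and 10.9% fell in Kelly, 1.36% and 4.58% in SKNAS, and 0.691% and 3.05% in BE2C. These shares were 0.409% and 3.96% in SHSY5Y, and 15.6% and 12.9% in the average. SCARNA21, from an intron of the chromatin remodeller gene CHD3, rose in 3 lines. Its levels in BE2C were 7.77, 7.69 and 7.70 under CYC065, against 7.23, 7.28 and 7.20 untreated, with no overlap and a change of 0.48 ± 0.05 (adjusted p 0.00436). It changed by 0.59 ± 0.10 in Kelly and by 0.33 ± 0.07 in SKNAS (adjusted p 0.00433 and 0.0172), the SKNAS call being lost without untreated array 1 or 2 or CYC065 array 4. In SHSY5Y its arrays overlapped. SCARNA23 and SCARNA20 rose in Kelly, by 0.46 and 0.41, and averaged 0.34 and 0.24. SCARNA3, SCARNA22 and SCARNA1 rose only in the average, by 0.50, 0.27 and 0.26, and SCARNA3 was the least even of these, at 5.37, 5.82 and 6.54 under CYC065 in Kelly, against 5.28, 4.52 and 5.14 untreated.

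SCARNA15 was the scaRNA with the largest fall. In Kelly it stood at 2.52, 2.24 and 2.61 under CYC065, against 3.70, 3.46 and 3.11 untreated, and in SKNAS at 2.81, 2.83 and 2.68 under CYC065, against 3.65, 3.50 and 3.77 untreated. Treated arrays lay below untreated ones in both lines, and the gene lay below the background median in 6 of the 8 groups, so that its changes of -0.96 and -0.87 rest on dim signal. Its changes in BE2C and SHSY5Y were -0.14 and -0.45 and were not called. SCARNA13, a guide for U2 and U5 RNA, fell by 0.27 ± 0.07 in Kelly (adjusted p 0.0334), a call lost without untreated array 2 or 3 or CYC065 array 4 or 5, and averaged -0.15. The other H/ACA scaRNAs, SCARNA4, SCARNA8, SCARNA11, SCARNA14 and SCARNA18, were called in no line, with average changes of -0.05, 0.10, -0.01, 0.14 and 0.04. Of the 4 scaRNAs that hold both kinds of domain, SCARNA5, SCARNA6, SCARNA10 and SCARNA12, limma called none in a single line (1 had an unadjusted p under 0.05 in SKNAS, 1 in BE2C and 0 in Kelly and SHSY5Y). SCARNA6 rose in the average, by 0.26 ± 0.09 (adjusted p 0.0323), a call lost without any 1 of 12 of the 24 arrays. SCARNA10, known as U85, guides both modifications of U5 RNA and averaged 0.02. SCARNA27, whose class was not assigned, averaged -0.15 and was not called.

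Among the 73 SNORA genes, whose RNAs act mostly on ribosomal RNA in the nucleolus, 28 rose and 8 fell in Kelly. In SKNAS 13 rose and 11 fell, in BE2C 1 rose and 5 fell, and in SHSY5Y 4 rose and 3 fell. Of all symbols 8.91% rose and 10.9% fell in Kelly, and 1.36% and 4.58% in SKNAS. These shares were 0.691% and 3.05% in BE2C, and 0.409% and 3.96% in SHSY5Y. The SNORA genes thus fell about as often as all symbols in Kelly and SHSY5Y. SNORA75, also known as U23 and encoded in the nucleolin gene NCL on chromosome 2, had the largest change of all 96. In Kelly it stood at 4.58, 4.53 and 4.88 under CYC065, against 6.22, 6.02 and 6.15 untreated, and in SKNAS at 3.87, 3.55 and 3.70 under CYC065, against 5.47, 5.59 and 5.53 untreated. In BE2C it stood at 5.76, 5.55 and 5.78 under CYC065, against 6.88, 7.11 and 7.39 untreated, and in SHSY5Y at 5.15, 4.74 and 4.63 under CYC065, against 5.57, 5.85 and 5.48 untreated. The groups were apart in all 4 lines, and the gap was narrowest in SHSY5Y. The change was -1.47 ± 0.10 in Kelly (2.77-fold lower; adjusted p 5.92e-05), -1.82 ± 0.09 in SKNAS (3.54-fold lower; 1.1e-05), -1.43 ± 0.13 in BE2C (2.70-fold lower; 0.00273) and -0.79 ± 0.15 in SHSY5Y (1.73-fold lower; 0.0158). The SHSY5Y call was lost without untreated array 2 or CYC065 array 5 or 6, and with each array centred on its median or with quantile normalisation. The average fall of 1.38 ± 0.07 on the log2 scale had an adjusted p of 9.86e-13.

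SNORA9, inside the lncRNA gene SNHG15, was the other gene that fell in all 4 lines. Its levels were 6.50, 6.47 and 6.50 under CYC065 in Kelly, against 7.51, 7.56 and 7.72 untreated, and 6.00, 6.00 and 6.05 under CYC065 in SKNAS, against 6.72, 6.74 and 6.78 untreated. They were 6.60, 6.68 and 6.58 under CYC065 in BE2C, against 7.14, 7.08 and 7.08 untreated, and 6.15, 6.08 and 6.32 under CYC065 in SHSY5Y, against 6.60, 6.70 and 6.74 untreated. All treated arrays lay below all untreated arrays of their line. The changes were -1.11 ± 0.06 in Kelly, -0.73 ± 0.06 in SKNAS, -0.48 ± 0.05 in BE2C and -0.50 ± 0.08 in SHSY5Y (adjusted p 2.69e-05, 0.000112, 0.00483 and 0.0106). The SHSY5Y call did not hold without untreated array 2 or CYC065 array 5.

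SNORA44 and SNORA17, inside the lncRNA genes SNHG12 and SNHG7, each fell in 3 lines. SNORA44 stood at 6.02, 5.97 and 6.14 under CYC065 in SKNAS, against 6.95, 7.02 and 7.12 untreated, and at 6.97, 7.01 and 6.90 under CYC065 in BE2C, against 7.12, 7.22 and 7.12 untreated. Both pairs of groups were apart, but the fall was 0.98 in SKNAS and 0.19 in BE2C, where it was not called (adjusted p 0.156). It fell by 0.66 in Kelly and by 0.52 in SHSY5Y, the last call being lost without CYC065 array 5. SNORA17 (SNORA17A in RefSeq) stood at 6.92, 6.86 and 6.87 under CYC065 in Kelly, against 7.47, 7.48 and 7.55 untreated, and at 7.23, 7.15 and 7.10 under CYC065 in BE2C, against 7.61, 7.62 and 7.71 untreated. The groups did not overlap in either line, and the changes were -0.62 and -0.49, with -0.82 in SKNAS and an uncalled -0.22 in SHSY5Y (adjusted p 0.193).

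The remaining falls were smaller or limited to the earlier deposit. SNORA55, from an intron of PABPC4, changed by -0.37 in Kelly, -0.55 in SKNAS and -0.54 in BE2C, all called, and by an uncalled -0.24 in SHSY5Y; the Kelly call was lost without untreated array 1 or 3 and the BE2C call without any untreated array or CYC065 array 6. SNORA26, from the lncRNA gene DANCR, changed by -0.65 in Kelly and -0.80 in SKNAS, both called, and by -0.39 and 0.06 in BE2C and SHSY5Y, where arrays overlapped. SNORA38 and SNORA13 fell in SKNAS alone among the single lines, by 0.58 and 0.64 (the SNORA13 call was lost without untreated array 1), and averaged -0.29 and -0.22, the SNORA13 average losing its call without any 1 of 12 arrays. SNORA71E fell in Kelly and SKNAS by 0.20 and 0.28, SNORA79 fell in SKNAS by 0.38 and SNORA74B in BE2C by 0.40. None of these 4 calls held without each array in turn: the SNORA71E call in SKNAS was lost without any 1 of 6 arrays and in Kelly without any 1 of the untreated arrays or CYC065 array 4, that of SNORA79 without any array but CYC065 array 5, and that of SNORA74B without any array but CYC065 array 6. SNORA15, the gene below background in every group, fell by 0.46 in Kelly.

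The SNORA genes that rose in the average did so by less than SNORA75 fell. SNORA49, from an intron of the chromatin remodeller gene EP400, stood at 9.70, 9.54 and 9.57 under CYC065 in Kelly, against 9.16, 9.11 and 9.04 untreated, and at 9.65, 9.44 and 9.32 under CYC065 in SHSY5Y, against 8.91, 8.93 and 8.71 untreated. Arrays were apart in these lines as well as in SKNAS and BE2C. It rose by 0.50 ± 0.06 in Kelly, 0.41 ± 0.07 in SKNAS and 0.62 ± 0.10 in SHSY5Y (adjusted p 0.00103, 0.00814 and 0.00892), with an uncalled 0.44 ± 0.11 in BE2C (adjusted p 0.0903). SNORA20, from an intron of the chaperonin gene TCP1, had the largest average rise of the SNORA genes, 0.59 ± 0.08 (adjusted p 6e-06). It stood at 7.52, 6.96 and 7.37 under CYC065 in Kelly, against 6.59, 6.56 and 6.21 untreated, and at 6.26, 6.28 and 6.17 under CYC065 in SKNAS, against 5.46, 5.66 and 5.48 untreated. It rose in both lines, by 0.83 and 0.70, whereas in SHSY5Y its arrays overlapped.

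SNORA24, from the lncRNA gene SNHG8, and SNORA48, from the translation factor gene EIF4A1, rose by similar amounts in Kelly (0.37 and 0.34), SKNAS (0.34 each) and SHSY5Y (0.42 and 0.38). Both sets of groups were apart in BE2C too, where changes of 0.28 and 0.29 were not called. These are calls near the threshold: the SHSY5Y call was lost without untreated array 1 or 2 or CYC065 array 4 or 5 for both genes, and without untreated array 3 for SNORA24. The SKNAS call of SNORA24 was lost without untreated array 2 and that of SNORA48 without any array but CYC065 array 5, and the Kelly call of SNORA48 without untreated array 2. The other large average rises were those of SNORA14B (0.45, from TOMM20), SNORA71A (0.43, from SNHG17), SNORA12 (0.43, from CWF19L1), SNORA59B (0.40), SNORA47 (0.39, from ZBED3) and SNORA53 (0.38, from SLC25A3). SNORA71A was the tightest of these in Kelly, at 10.78, 10.74 and 10.76 under CYC065, against 10.25, 10.25 and 10.22 untreated. SNORA59B shares identical values with a row of another chromosome, so its signal cannot be placed. SNORA52, from the ribosomal protein gene RPLP2, rose in Kelly and SKNAS by 0.37 and 0.40, the SKNAS call being lost without untreated array 1 or 3. SNORA54, from NAP1L4, rose in SHSY5Y alone among the single lines, by 0.51 ± 0.12 (adjusted p 0.0492), and lost that call without any 1 of untreated arrays 1 to 3 or CYC065 array 4 or 5. SNORA11, from MAGED2, rose only in the average, by 0.27 ± 0.09 (adjusted p 0.0307), and lost that call without any 1 of 10 of the 24 arrays. SNORA38B, from NOL11, had differences of -0.48 in Kelly, 0.16 in SKNAS, -0.62 in BE2C and 0.36 in SHSY5Y with standard errors of 0.19 to 0.26 and was called in none.

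A larger mean change was not always a called one. SNORA2A stood at 7.78, 8.29 and 8.90 under CYC065 in Kelly, against 7.80, 6.88 and 7.40 untreated, and its difference of 0.96 ± 0.31 missed the threshold (adjusted p 0.0658). SNORA23 stood at 10.34, 10.51 and 11.18 under CYC065 in Kelly, against 10.79, 8.76 and 9.72 untreated. Both genes had overlapping groups and a wide spread between arrays. They are named because of these values.

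The size of the change differed between the 4 lines for 8 of the 96 genes by limma's F test (5.14% of all symbols were called). Most of these were genes that fell: SNORA9 (adjusted p 0.000127), SNORA17 (0.000611), SNORA44 (0.000768), SNORA75 (0.0117) and SCARNA15 (0.0136). The others were SNORA45B (0.000195), SNORA80E (0.00712) and SNORA36C (0.0164). SNORA45B (SNORA3B in RefSeq), from an intron of the ribosomal protein gene RPL27A, stood at 7.08, 6.93 and 7.12 under CYC065 in Kelly, against 6.29, 6.19 and 6.34 untreated, and at 6.34, 6.45 and 6.54 under CYC065 in SKNAS, against 6.51, 6.81 and 6.69 untreated. Groups were apart in Kelly and overlapped in SKNAS. It also rose in BE2C, by 0.51, a call lost without any array but CYC065 array 5. The change was 0.77 ± 0.07 in Kelly and -0.23 ± 0.09 in SKNAS, and their difference of 0.99 was the largest of the 3 called between these lines (2 genes with a higher change in Kelly and 1 with a lower one, against 0.949% and 2.94% of all symbols). SNORA80E, from KHDC4 (KIAA0907 on the array), was the second, with an uncalled change of 0.21 in Kelly and, in SKNAS, levels of 5.87, 5.67 and 5.38 under CYC065, against 6.19, 6.38 and 6.19 untreated, a change of -0.61 whose call was lost without any 1 of the untreated arrays. SNORA9 was the third, its fall being larger in Kelly by 0.38. Kelly and SKNAS also differ in the dose that the protocol gives, so line and dose cannot be told apart. Between BE2C and SHSY5Y limma called 0 genes (14 of 96 had an unadjusted p under 0.05, and 3 were called in each direction with array weights), where 0.843% of all symbols had a higher and 0.152% a lower change in BE2C.

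Untreated cells already differed in these RNAs. Untreated Kelly cells had 31 genes at a higher and 14 at a lower level than untreated SKNAS cells by limma, against 18.2% and 18.6% of all symbols. SCARNA9 was 1.45 higher on the log2 scale in Kelly, at 8.50, 8.45 and 8.49, against 7.08, 6.92 and 7.10 in SKNAS. SNORA47, SNORA38B and SCARNA2 were higher in Kelly by 1.25, 1.14 and 1.11, and SCARNA6, SCARNA5 and SNORA52 gave Kelly minus SKNAS differences of -0.62, -0.55 and -0.45. Untreated BE2C cells had 25 genes higher and 17 lower than untreated SHSY5Y cells, against 16.3% and 14.5% of all symbols. SNORA75 was 1.49 higher in BE2C, at 6.88, 7.11 and 7.39, against 5.57, 5.85 and 5.48 in SHSY5Y, with no overlap. SNORA71A and SCARNA9L were higher in BE2C by 1.01 and 0.93. SNORA12, SNORA11 and SNORA13 were lower in BE2C, with differences of -1.17, -1.01 and -0.97.

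Of the 96 genes, 92 lie in a host gene that was also measured, in 83 different hosts, and the host did not always move with its RNA. In the average over the lines 9 genes rose with a host that rose, 13 rose with a host that fell and 23 rose with a host that was not called. Of the genes that fell, 8 had a host that fell, 3 a host that was not called and none a host that rose. A further 18 genes were not called while their host fell. Across the 92 pairs the average changes of RNA gene and host had a Pearson r of 0.28 and a Spearman rho of 0.32, as a description: the pairs share arrays, and some share a host. In the average 5 of 15 genes inside lncRNA genes rose and 8 fell, and 39 of 77 inside protein-coding genes rose and 5 fell, a difference that was not tested. Over all symbols 15.6% rose and 12.9% fell in the average.

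**Figure D4:**
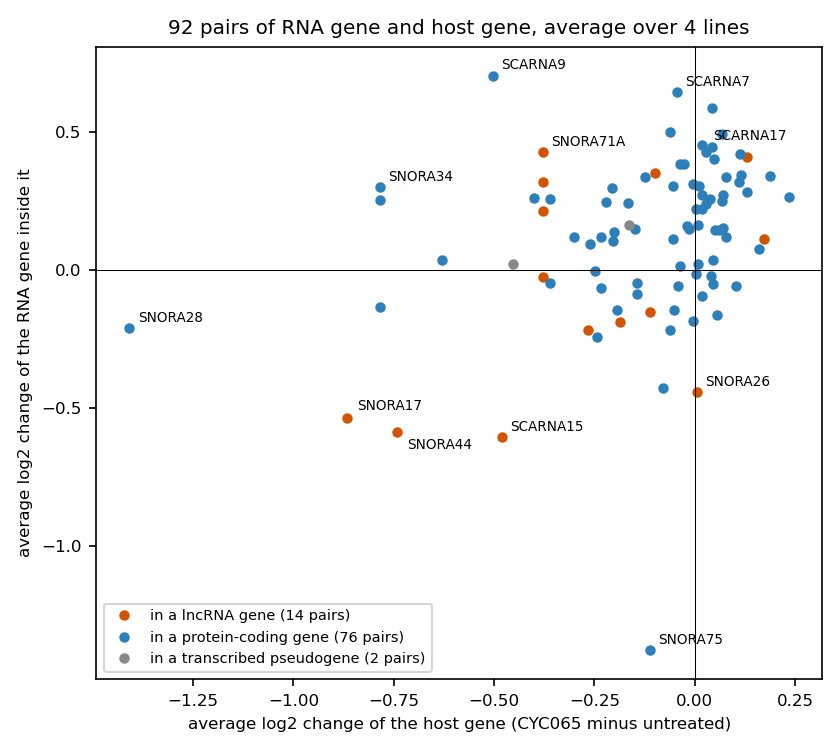
Average log2 change (CYC065 minus untreated, 4 lines) of each RNA gene (vertical axis) against that of the host gene it lies in (horizontal axis), 92 pairs coloured by the kind of host. SNORA17, SNORA44 and SCARNA15 lie low with hosts that fell, SNORA75 lies lowest with a host near 0, and SCARNA9 lies highest with a host at -0.50.

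Of the 8 pairs that fell together in the average, 6 lay in lncRNA genes, 5 of them of the SNHG family, which are known as carriers of snoRNAs. SNHG7, host of SNORA17, stood at 7.70, 7.74 and 7.71 under CYC065 in Kelly, against 8.80, 8.75 and 8.85 untreated, and fell in every line: the change was -1.09 in Kelly, -1.06 in SKNAS, -0.82 in BE2C and -0.50 in SHSY5Y. SNORA17 had its smallest change in the same line, SHSY5Y. SNHG12, host of SNORA44, changed by -0.85, -1.14, -0.23 and -0.74, and its smallest change, not called, was in BE2C as it was for SNORA44. Levels of SNORA44 and SNHG12 were close: in Kelly 6.74, 6.74 and 6.89 against 6.76, 6.76 and 6.89 under CYC065. Untreated Kelly arrays gave 7.36, 7.35 and 7.65 for SNORA44 against 7.51, 7.57 and 7.87 for SNHG12. Whether both rows read the same transcript was not tested, so their falls may not be separate observations. SNHG21, host of SCARNA15, changed by -0.48 and -0.92 in Kelly and SKNAS, both called, and by an uncalled -0.25 and -0.27 in the other lines. The starts of SNHG7 and SNHG12 are printed because these are the hosts whose fall went with that of their RNA in the most lines. They run from 250 bases before to 50 bases after the start (RefSeq, GRCh38.p14), at chr9:136728135-136728434 and chr1:28581824-28582123, both on the minus strand. Capitals mark CACGTG, the E-box letters that MYC proteins bind, and TATAAA, both searched on the 2 strands.
SNHG7: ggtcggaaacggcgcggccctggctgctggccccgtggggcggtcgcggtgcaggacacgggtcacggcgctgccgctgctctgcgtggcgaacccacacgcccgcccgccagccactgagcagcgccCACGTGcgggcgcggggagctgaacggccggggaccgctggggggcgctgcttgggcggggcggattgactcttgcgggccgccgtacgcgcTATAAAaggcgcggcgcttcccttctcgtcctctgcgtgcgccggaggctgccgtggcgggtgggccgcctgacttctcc
SNHG12: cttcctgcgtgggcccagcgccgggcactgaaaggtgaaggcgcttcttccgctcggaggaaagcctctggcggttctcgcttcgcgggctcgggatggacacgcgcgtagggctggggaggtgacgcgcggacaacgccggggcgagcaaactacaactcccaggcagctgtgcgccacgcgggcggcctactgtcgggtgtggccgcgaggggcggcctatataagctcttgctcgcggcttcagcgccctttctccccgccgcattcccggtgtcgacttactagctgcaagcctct
SNHG7 holds CACGTG from base -122 and TATAAA from base -30, and neither run of letters is in the SNHG12 window. Of the 69 windows found for host genes, 8 (11.6%) held CACGTG and 5 (7.25%) held TATAAA, against 7.26% and 11.5% of all 35116 windows.

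In other pairs the RNA and its host changed by different amounts or in different directions. NCL, host of SNORA75, fell in the average by 0.11 ± 0.02 and was called in no single line, with changes of -0.15, -0.12, -0.16 and -0.02, while SNORA75 fell in all 4. DANCR, host of SNORA26, averaged 0.00. SCARNA9 rose by 0.70 on average while its host CEP295 (KIAA1731 on the array) fell by 0.82 in Kelly, 0.51 in SKNAS and 0.30 in BE2C, all called, and averaged -0.50 ± 0.05. KPNA4, host of SCARNA7, averaged -0.05 and was called in no line. SNHG17 fell in all 4 lines, by 0.29, 0.44, 0.27 and 0.52, and of the 4 RNAs in it SNORA71A, SNORA71C and SNORA71D rose in the average by 0.43, 0.32 and 0.21 while SNORA71B averaged -0.03. KANSL2 fell in all 4 lines and averaged -0.78 ± 0.03, and of its 3 RNAs SNORA34 rose in Kelly and SKNAS by 0.43 and 0.45 (the SKNAS call was lost without any array but CYC065 array 5), whereas SNORA2A and SNORA2B were not called. EIF5, a translation initiation factor, had the largest fall of any host, -1.41 ± 0.03 on average, and SNORA28 inside it was not called, with a level near background. Over the 83 hosts, to be read against 10.9% lower and 8.91% higher over all symbols in Kelly, 4.58% and 1.36% in SKNAS, 3.05% and 0.691% in BE2C and 3.96% and 0.409% in SHSY5Y, limma found 27 lower and 8 higher in Kelly, 15 lower and 0 higher in SKNAS (22 had an unadjusted p under 0.05 in either direction), 7 lower and 0 higher in BE2C (24 unadjusted), and 9 lower and 1 higher in SHSY5Y.

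The proteins that these RNAs work with were read from lists drawn up with earlier results in view. Over all symbols 10.9% fell in Kelly, 4.58% in SKNAS, 3.05% in BE2C and 3.96% in SHSY5Y, and 8.91%, 1.36%, 0.691% and 0.409% rose. Of 12 genes of H/ACA proteins and their assembly factors, limma found 3 lower in Kelly and called 0 in SKNAS, BE2C and SHSY5Y, where 3, 1 and 2 had an unadjusted p under 0.05. These were GAR1 (-0.31 ± 0.04), NAF1 (-0.20 ± 0.06), the assembly factor that GAR1 replaces, and the pseudouridine synthase DKC1 (-0.17 ± 0.05). NOP10 was not called in any line. Of 21 genes of Cajal bodies and scaRNA particles, 13 fell in Kelly, 9 in SKNAS, 7 in BE2C and 10 in SHSY5Y, and limma found 0 higher (17, 12, 11 and 12 had an unadjusted p under 0.05 in either direction). DDX20, a partner of the SMN protein, NPAT, which activates histone genes, USPL1, a Cajal body SUMO protease, and COIL, which encodes the scaffold coilin, fell in every line and averaged -0.95, -0.81, -0.76 and -0.60. WRAP53, which carries scaRNAs and telomerase RNA to Cajal bodies, averaged 0.03 and was not called. Of 7 box C/D core protein genes, 3 fell (NUFIP1, NOP56 and ZNHIT6) and 1 rose (NHP2L1) in Kelly, while limma called 0 in SKNAS, BE2C and SHSY5Y (2, 2 and 1 had an unadjusted p under 0.05).

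Lists of factors that make the ends of such RNAs held more falls than rises, as did all symbols in every line. The shares of all symbols that fell and rose were 10.9% and 8.91% in Kelly and 4.58% and 1.36% in SKNAS. They were 3.05% and 0.691% in BE2C, and 3.96% and 0.409% in SHSY5Y. Of 22 Integrator and SNAPc genes, which serve small RNAs with promoters of their own, 7 fell and 1 rose in Kelly, 1 fell in each of SKNAS and BE2C, and 4 fell in SHSY5Y; the largest average falls were those of INTS5 and INTS6, by 0.44 and 0.40, and of SNAPC1 and INTS12, by 0.29 and 0.28. Of 24 genes for trimming snoRNA 3′ ends, 12 fell and 2 rose in Kelly, 2 fell in SKNAS, and 3 fell in each of BE2C and SHSY5Y. RBM7, which brings the nuclear exosome to RNA, fell in all 4 lines and averaged -0.59, ZCCHC8 of the same complex averaged -0.29, and PAPD5 and PAPD7, which add short tails, averaged -0.31 each. Of 5 other RNAs read beside these, telomerase RNA (TERC), which ends in an H/ACA domain, rose in Kelly by 0.32 ± 0.06 and averaged 0.16. NEAT1 rose in Kelly, SKNAS and SHSY5Y, by 0.23, 0.49 and 0.99, RPPH1 in Kelly and BE2C, by 0.73 and 0.42, and RN7SK in the average alone, by 0.10.

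The 192 SNORD symbols, the box C/D RNAs of the nucleolus, were also called in both directions: 70 rose and 11 fell in Kelly (8.91% and 10.9% of all symbols), 20 and 23 in SKNAS (1.36% and 4.58%), 10 and 7 in BE2C (0.691% and 3.05%), and 15 and 3 in SHSY5Y (0.409% and 3.96%), with an average median change of 0.16 beside 0.14 for the 96 H/ACA and Cajal body RNA genes. No difference between both classes was tested. As a check of the treatment, MCL1, a short-lived survival gene, fell by 1.17 in Kelly, 0.94 in SKNAS, 0.66 in BE2C and 0.96 in SHSY5Y, and MYCN fell by 2.98 in Kelly and 1.41 in BE2C.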

How the data were processed

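Per the labels, the authors summarised each array by RMA; affy and limma are also named, with no versions. The deposited values are log2 levels per array row. RMA places arrays on a common scale and can hide a change in total RNA. The authors' deposited table gives, for BE2C and SHSY5Y, log2 changes, mean log2 levels and p-values (raw and adjusted) per symbol. The value table names no genes, so a symbol was given to the row, or the mean of 2 rows, whose change and level in both lines equal the table's within 1e-07. Of 33720 symbols 32974 (97.8%) were joined, 26741 to 1 row and 6233 to 2 (the brighter was kept). A control with shifted values gave 0 matches for 3000 symbols. All 96 genes were joined, 87 to 1 row and 9 to 2.

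Changes are differences of log2 means from limma 3.58.1 in R 4.3.3 (group means, moderated variance), with 3 CYC065 and 3 untreated arrays in each line's own fit. One model with 8 groups and 24 arrays gave the average, the F test and the differences between lines, and a fit to the untreated arrays compared lines within a deposit. P-values were adjusted by Benjamini-Hochberg over 32974 symbols and called under 0.05, whatever the fold. The ± values are limma's moderated standard errors. On simulated data with 50 symbols per fold among 32974, a 1.5-fold change was recovered for 76% in Kelly, 76% in SKNAS, 70% in BE2C, 46% in SHSY5Y and 100% in the average. Array number and signal over background limit precision.

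Members and lists were chosen with earlier results of these data known. Named members are all SCARNA genes, the 8 largest average rises and falls of SNORA genes, those called one way in 3 lines, the 3 largest in each line and untreated comparison, and those that differ between lines; others were named after their values were seen. Hosts are the smallest RefSeq gene (GRCh38.p14) that holds a member. Strand was not compared, since the gene table used has no strand column. Alternatives tried were shared variance, median centring, quantile normalisation, a background filter, the other row of a pair, array weights, all rows, a 1.5-fold minimum and leaving out each array. Figures used matplotlib 3.10.9. Some marker genes are not reported here.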

Additional observations from a re-analysis of the deposited data

Results flagged for a closer look

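The change under CYC065 differed between the 4 lines for 8 of the 96 genes by limma's F test. The adjusted p was 0.000127 for SNORA9, 0.000195 for SNORA45B, 0.000611 for SNORA17, 0.000768 for SNORA44, 0.00712 for SNORA80E, 0.0117 for SNORA75, 0.0136 for SCARNA15 and 0.0164 for SNORA36C. SNORA36C, from an intron of AAK1, rose by 0.54 in Kelly, at 5.22, 5.55 and 5.15 under CYC065, against 4.77, 4.76 and 4.75 untreated, and changed by 0.25, -0.09 and -0.10 in SKNAS, BE2C and SHSY5Y without a call.

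Between Kelly and SKNAS the difference of the log2 changes, Kelly minus SKNAS, was called for SNORA45B (0.99), SNORA80E (0.82) and SNORA9 (-0.38).

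For 3 genes every treated array lay on 1 side of the untreated ones in a line and on the other side in another, and the difference between each such pair of lines was not tested. Limma's F test over the 4 lines did not call these genes (adjusted p 0.240 for SNORA57, 0.119 for SNORA74A and 0.185 for SNORA7B). How many of all symbols were apart in opposite directions was not counted. SNORA57 changed by 0.23 in Kelly and -0.13 in BE2C. SNORA74A changed by -0.28 in SKNAS and 0.32 in SHSY5Y. SNORA7B changed by -0.19 in SKNAS and 0.07 in SHSY5Y.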

How the results depend on the processing

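No paired analysis was possible because treated and untreated arrays share no replicate numbers. Of 253 calls tested under 5546 alternative values, 4886 kept direction and threshold, 658 lost the threshold and 2 turned sign: in the later deposit alone (chosen after seeing the data) the average was 0.0058 for SNORA13 and -0.10 for SNORA36C. There 23 genes rose and 7 fell in the average. With a 1.5-fold minimum, 9 rose and 6 fell in Kelly, 3 rose and 8 fell in SKNAS, 1 rose and 1 fell in BE2C, 3 rose and 1 fell in SHSY5Y, and 3 rose and 4 fell in the average. With it, 0 genes had a lower change in Kelly than in SKNAS, 18 were higher and 1 lower in untreated Kelly than SKNAS, and 9 higher and 8 lower in untreated BE2C than SHSY5Y. The shares of all symbols under this minimum were not counted. With a shared variance 8 rose in BE2C, and 16 rose and 5 fell in SHSY5Y. Median centring left 4 risen in SHSY5Y. Array weights gave 19 risen and 10 fallen in SHSY5Y, 6 higher in Kelly than in SKNAS, and 3 and 3 between BE2C and SHSY5Y. Over all array rows 3 rose and 3 fell in BE2C and 4 rose in SHSY5Y. The mean of 2 rows gave 1 lower change in BE2C than SHSY5Y.

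Leaving out single arrays gave 30 to 42 risen and 7 to 14 fallen in Kelly, 8 to 22 and 8 to 13 in SKNAS, 3 to 4 and 3 to 5 in BE2C, 3 to 9 and 0 to 5 in SHSY5Y, 39 to 47 and 13 to 15 in the average, and 8 to 10 by the F test. For Kelly minus SKNAS it gave 2 to 4 higher (4 without Kelly untreated array 3) and 1 to 1 lower, and for BE2C minus SHSY5Y 0 to 0 higher and 0 to 1 lower (1 without SHSY5Y untreated array 1 or 2). Untreated Kelly against SKNAS gave 29 to 35 and 10 to 16, and untreated BE2C against SHSY5Y 20 to 31 and 14 to 20. Calls that held without any single array numbered 34 of 46 in Kelly, 15 of 29 in SKNAS, 6 of 10 in BE2C, 3 of 10 in SHSY5Y and 51 of 60 in the average. The cause of these shifts was not tested. Near-background genes are limited by signal over background.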
